A study of Mus musculus with 12 samples.

Results

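The spleen is wrapped in a mesothelium, and 10 genes known from that layer were followed in whole spleen RNA of 12 mice. The genes were Msln, Upk3b, Upk1b, Lrrn4, Krt19, Krt8, Krt18, Wt1, Gpm6a and Bnc1, and the files listed 18221 genes in all. They were chosen by name, as genes of the spleen's covering, after differences between the groups were already known in these mice. The group differences below are therefore descriptions of chosen genes and are no independent evidence of a direction. All 10 were detected in every mouse, and 9 of them reached an RPKM (reads per kilobase of transcript scaled to the mapped reads of the library) of 1 in at least 3 mice and entered the fit across all genes. Bnc1 stayed under 1 in all 12 mice and is given by its values only.

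The mice were male ICR mice, an outbred stock, and entered the study at 3 weeks of age. Con-sa mice were dosed with saline alone. B-sa mice received 1 injection of busulfan, an alkylating drug used against cancer, at 40 mg/kg of body weight and then saline. B+Con-FMT mice received the same busulfan dose and then gut contents of control donor mice by mouth (fecal microbiota transplantation, FMT), and B+A10-FMT mice received busulfan and then gut contents of donors that had received alginate oligosaccharide by gavage at 10 mg/kg. FMT was given daily for 2 weeks, and spleens were taken at 8 weeks of age. The donor material was the pooled content of the small intestine, so each FMT group drew on 1 kind of pool. There were 3 spleens a group, and each was read as 1 mouse. Whether fat or neighboring tissue was trimmed from the spleens is not given in the sources used here.

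Mesothelium is a single sheet of flat cells that lines body cavities and covers the organs in them. It comes from mesoderm, yet it holds keratin filaments and cell junctions as an epithelium does. It makes a slippery surface, and its cells can turn toward a fibroblast state after injury. In the spleen the sheet lies on a capsule of collagen and smooth muscle, so its RNA is a small part of the RNA of the organ. In a bulk sample, fewer cells of a type and less RNA per cell cannot be told apart.

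The tissue was spleen by its own genes. Cd79a and Ms4a1, genes of B cells, had mean RPKM of 570 to 709 and 217 to 281 across the groups, and Slc40a1, the iron exporter of red pulp macrophages, had 87.7 to 141. Depth, estimated from the steps between low RPKM values, was 14900000 to 15700000 fragments per mouse. Against that background the mesothelial genes were low. Upk3b had the highest level (mean RPKM 7.77 over the 12 mice), followed by Msln (5.03), Gpm6a (4.18), Wt1 (4.0), Krt19 (2.60), Upk1b (1.70), Lrrn4 (1.54), Krt18 (1.22), Krt8 (0.99) and Bnc1 (0.37). Of 9 markers of other epithelia, 7 stayed under 1 in all mice, and the summed RPKM of the 9 lay between 3.1 and 5.6. Most of it was Epcam, a surface protein of many epithelia, whose group means of 2.28 to 2.94 were near those of Krt19; Krt20 and Cdh1 came next.

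Among the 10 genes, 6 had a promoter window in the RefSeq table (GRCm38.p6; 250 bases before to 50 bases after a start). The 4 windows below show both kinds of pattern described later: Upk3b and Lrrn4 were highest in B-sa, and Krt8 and Krt18, the neighboring keratin partners on chromosome 15, were not. The windows lie at chr5:136038246-136038545 (Upk3b, plus strand), chr2:132880813-132881112 (Lrrn4, minus strand), chr15:102004293-102004592 (Krt8, minus strand) and chr15:102027966-102028265 (Krt18, plus strand). Capitals mark CATTCC or its reverse GGAATG, the core letters bound by TEAD factors, and TATAAA or its reverse TTTATA, the TATA box; each was searched on both strands, together with the GC box GGGCGG.
Upk3b: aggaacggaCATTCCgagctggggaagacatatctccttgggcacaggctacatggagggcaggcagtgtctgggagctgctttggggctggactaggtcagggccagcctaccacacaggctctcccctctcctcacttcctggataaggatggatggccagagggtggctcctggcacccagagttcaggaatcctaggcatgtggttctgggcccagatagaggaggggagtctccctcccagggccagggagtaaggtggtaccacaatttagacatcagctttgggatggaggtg
Lrrn4: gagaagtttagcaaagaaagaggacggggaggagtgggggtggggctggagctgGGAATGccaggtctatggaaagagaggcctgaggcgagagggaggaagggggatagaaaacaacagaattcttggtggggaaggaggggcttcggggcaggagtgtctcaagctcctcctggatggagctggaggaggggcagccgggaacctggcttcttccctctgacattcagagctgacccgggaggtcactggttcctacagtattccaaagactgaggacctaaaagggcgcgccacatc
Krt8: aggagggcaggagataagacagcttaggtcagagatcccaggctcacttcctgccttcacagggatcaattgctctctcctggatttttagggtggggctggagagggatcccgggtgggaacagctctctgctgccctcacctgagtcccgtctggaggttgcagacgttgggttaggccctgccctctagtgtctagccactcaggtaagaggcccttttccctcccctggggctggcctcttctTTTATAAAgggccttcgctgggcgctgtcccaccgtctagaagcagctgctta
Krt18: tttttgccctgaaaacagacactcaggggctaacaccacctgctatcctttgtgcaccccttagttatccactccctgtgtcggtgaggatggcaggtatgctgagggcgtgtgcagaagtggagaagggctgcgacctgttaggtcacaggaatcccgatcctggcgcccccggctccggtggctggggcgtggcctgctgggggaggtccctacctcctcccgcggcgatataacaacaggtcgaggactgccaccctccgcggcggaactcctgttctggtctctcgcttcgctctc

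The Upk3b and Lrrn4 windows each held CATTCC once, as did the first of 2 Gpm6a windows, and these letters were found in 14.7% of all 32851 windows of this length. The Bnc1 window and the second Gpm6a window held them on neither strand, though both genes also had their highest mean in B-sa. The Krt8 window held TATAAA and its reverse in 1 overlapping run at the start site, and the second Gpm6a window held the reverse once, against 13.6% of all windows. The Bnc1 window was unlike the others: it held the GC box 6 times and was 83.3% G or C (median of all windows, 52.7%), and the first Gpm6a window held the GC box once, against 35.7% of all windows. The Krt18 window held none of the 3 motifs. Msln, Upk1b, Krt19 and Wt1 had no entry.

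The group that stood highest was B-sa, and it was carried by 2 of its 3 mice. The B-sa mean was the highest of the 4 group means for 7 of the 10 genes (Msln, Upk3b, Upk1b, Lrrn4, Krt19, Gpm6a and Bnc1). In the same 7 genes both B-sa mouse 2 and B-sa mouse 3 exceeded all 9 mice of the other groups. B-sa mouse 1 did not join them: it was the lowest of its group for 9 of the 10 genes and lay within the Con-sa range for 4. The summed RPKM of the 10 genes was 28.4, 43.4 and 41.9 in B-sa mice 1, 2 and 3, against ranges of 24.5 to 31.4 (Con-sa), 22.8 to 29.8 (B+Con-FMT) and 21.5 to 28.5 (B+A10-FMT). The B+A10-FMT mean was the lowest for 7 genes (Msln, Upk1b, Lrrn4, Krt19, Krt8, Krt18 and Bnc1).

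**Figure D1:**
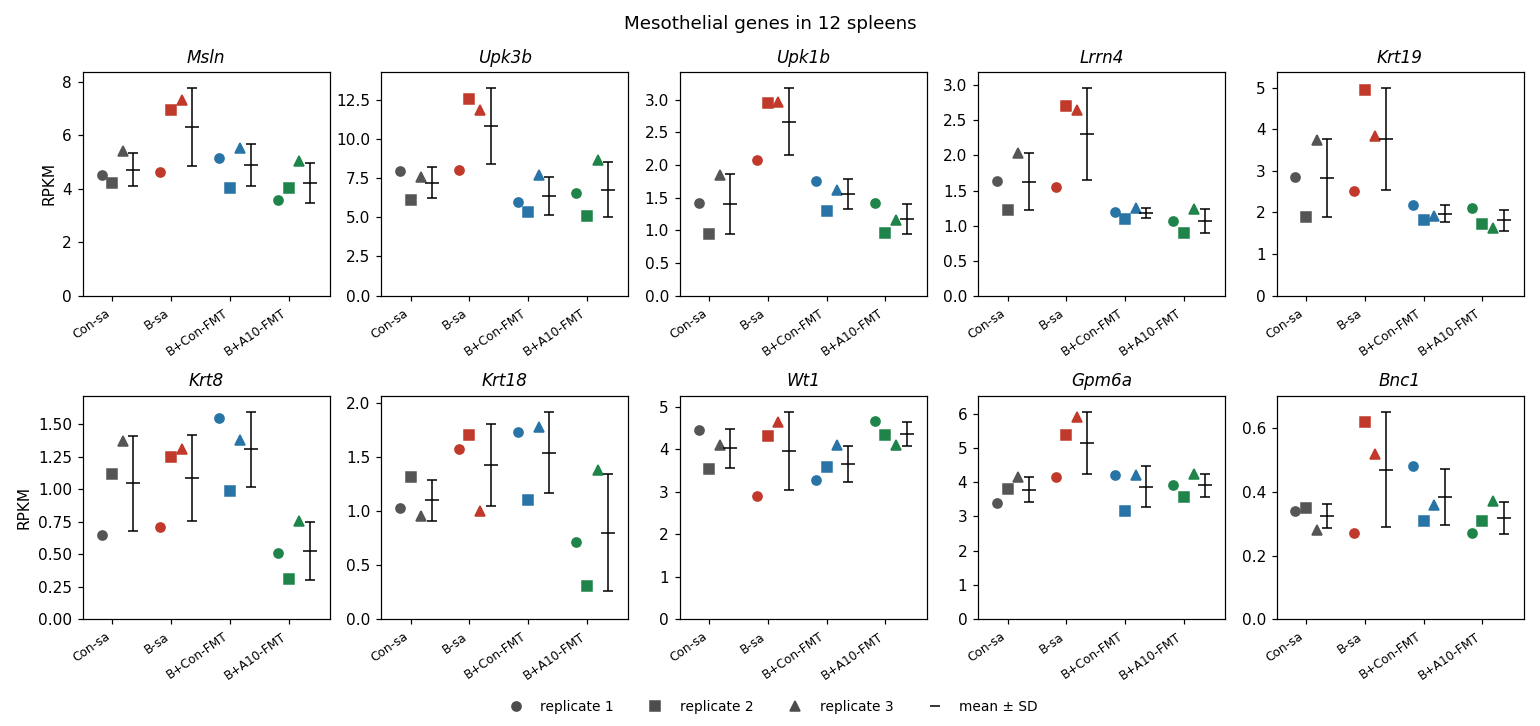
RPKM of the 10 mesothelial genes (1 panel each, vertical axes from 0) in the 12 spleens; symbols are the 3 mice of a group, and the bar beside them is the mean ± SD. B-sa mice 2 and 3 lie above all mice of the other groups for Msln, Upk3b, Upk1b, Lrrn4, Krt19, Gpm6a and Bnc1, whereas Wt1 is nearly level and Krt8 and Krt18 are lowest in B+A10-FMT.

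The surface proteins come first. Msln encodes mesothelin, a protein tied to the mesothelial surface by a lipid anchor and a target of cancer antibodies. Its RPKM was 4.50, 4.22 and 5.40 in Con-sa, 4.64, 6.96 and 7.31 in B-sa, 5.14, 4.01 and 5.51 in B+Con-FMT and 3.57, 4.02 and 5.04 in B+A10-FMT. The groups overlapped in each pairing, since B-sa mouse 1 sat among the others. The group mean was 6.30 ± 1.45 (SD, n = 3) in B-sa and 4.21 ± 0.75 (SD, n = 3) in B+A10-FMT, with a log2 difference of B+A10-FMT minus B-sa of -0.48 on the log2(RPKM + 1) scale (SE 0.16; limma, adjusted p = 0.0908).

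Upk3b and Upk1b are uroplakins, membrane proteins best known from the plaques of the bladder surface; Upk1b is a tetraspanin. Upk3b had RPKM of 7.96, 6.08 and 7.57 in Con-sa, 8.03, 12.53 and 11.81 in B-sa, 5.95, 5.36 and 7.72 in B+Con-FMT and 6.56, 5.09 and 8.63 in B+A10-FMT. All 3 B-sa mice were above all Con-sa and all B+Con-FMT mice, the first of them narrowly, while B+A10-FMT mouse 3 exceeded B-sa mouse 1. The B-sa mean of 10.8 ± 2.42 was 1.50 times that of Con-sa (log2 difference 0.51, SE 0.20; limma, adjusted p = 0.102). Upk1b had RPKM of 1.42, 0.94 and 1.85 in Con-sa, 2.07, 2.95 and 2.96 in B-sa, 1.75, 1.30 and 1.61 in B+Con-FMT and 1.42, 0.96 and 1.15 in B+A10-FMT. It was the one gene of the 10 whose 3 B-sa values lay above all 9 other mice. Its B-sa mean was 1.90 times that of Con-sa and 2.26 times that of B+A10-FMT.

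Lrrn4 encodes a membrane protein with leucine-rich repeats, and Gpm6a a membrane glycoprotein of the proteolipid family that is abundant in neurons. Lrrn4 had RPKM of 1.63, 1.22 and 2.03 in Con-sa, 1.55, 2.71 and 2.65 in B-sa, 1.19, 1.10 and 1.25 in B+Con-FMT and 1.06, 0.89 and 1.23 in B+A10-FMT. All B-sa mice exceeded all mice of both FMT groups, and B-sa overlapped with Con-sa. Gpm6a had RPKM of 3.40, 3.80 and 4.14 in Con-sa, 4.15, 5.38 and 5.90 in B-sa, 4.21, 3.17 and 4.21 in B+Con-FMT and 3.93, 3.57 and 4.24 in B+A10-FMT. Its B-sa mice stood above Con-sa, mouse 1 by the smallest step, and overlapped with both FMT groups. The log2 difference of B-sa minus Con-sa was 0.35 (SE 0.12; limma, adjusted p = 0.0643).

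The keratins divided. Krt19, a type I keratin of simple epithelia, went with the surface proteins, with RPKM of 2.85, 1.88 and 3.75 in Con-sa, 2.51, 4.94 and 3.84 in B-sa, 2.19, 1.82 and 1.91 in B+Con-FMT and 2.10, 1.73 and 1.62 in B+A10-FMT. The B-sa mice were above all FMT mice, and within the Con-sa spread for mouse 1. A second listed Krt19 transcript, NM_001313963.1, was at 0 in 9 mice and held 0.84 and 2.19 in Con-sa mice 1 and 3 and 0.28 in B+A10-FMT mouse 1. The principal transcript, NM_008471.3, was at 2.01, 1.88 and 1.56 in Con-sa and 2.51, 4.94 and 3.84 in B-sa, so the gap to Con-sa depended on whether the transcripts were summed: its log2 difference was 0.31 for the sum (SE 0.19; limma, adjusted p = 0.287) and 0.73 for the principal transcript alone (limma, adjusted p = 0.0368). Upk1b had a similar second transcript, XM_017316943.1, listed above 0 only in Con-sa mouse 3 (1.23) and B+A10-FMT mouse 1 (0.36).

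Krt8 and Krt18, the type II and type I keratins that pair into 1 filament in simple epithelia, had another order, with the highest mean in B+Con-FMT. Krt8 had RPKM of 0.65, 1.12 and 1.37 in Con-sa, 0.71, 1.25 and 1.31 in B-sa, 1.55, 0.99 and 1.38 in B+Con-FMT and 0.51, 0.31 and 0.76 in B+A10-FMT. Krt18 had RPKM of 1.03, 1.32 and 0.96 in Con-sa, 1.58, 1.71 and 1.0 in B-sa, 1.74, 1.11 and 1.78 in B+Con-FMT and 0.72, 0.31 and 1.38 in B+A10-FMT. Every B+A10-FMT mouse had less Krt8 than every B+Con-FMT mouse, and Krt18 was not, because of B+A10-FMT mouse 3. All these values were under RPKM 2. Krt8 also has a listed pseudogene (Krt8-ps), and how reads shared with such copies were counted is not given in the sources used here.

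Acinar cells of the pancreas also use Krt8 and Krt18, so pancreatic RNA was set beside both. The summed RPKM of 23 acinar genes (Ctrb1, Cela2a and Try4 the highest) was 3244, 7324 and 1393 in Con-sa, 3614, 1108 and 513 in B-sa, 14040, 13368 and 8952 in B+Con-FMT and 522, 918 and 10909 in B+A10-FMT. B+Con-FMT had the highest means of the acinar sum and of both keratins, and B+A10-FMT mouse 3 was the highest of its group in all 3 measures. Within Con-sa, Krt18 had the same order over the mice as the acinar sum, whereas Krt8 was highest in mouse 3, which had the lowest acinar sum. Within B-sa, mouse 3 was the lowest in the acinar sum and in Krt18, whereas Krt8 was lowest in mouse 1, which had the highest acinar sum. Within B+Con-FMT, mouse 3 had the lowest acinar sum and the highest Krt18. B+A10-FMT had the lowest mean of both keratins and not of the acinar sum. The part of pancreatic RNA in the keratin values was not tested.

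Wt1 and Bnc1 encode zinc finger proteins of the nucleus; Wt1 is needed for the spleen to form and is also made by mesenchymal cells. Wt1 was the steadiest of the 10, with a coefficient of variation of 13.9% over the 12 mice, against 18.6% for Gpm6a and 22.9% to 40.5% for the other 8. Its RPKM was 4.45, 3.53 and 4.10 in Con-sa, 2.91, 4.32 and 4.64 in B-sa, 3.27, 3.59 and 4.10 in B+Con-FMT and 4.66, 4.34 and 4.10 in B+A10-FMT. The order of its group means, from B+A10-FMT down through Con-sa and B-sa to B+Con-FMT, was unlike that of the other genes, and no neighbors in it differed by more than their spread. The 95% interval of its log2 difference of B-sa minus Con-sa ran from -0.31 to 0.24. Bnc1 was at 0.34, 0.35 and 0.28 in Con-sa, 0.27, 0.62 and 0.52 in B-sa, 0.48, 0.31 and 0.36 in B+Con-FMT and 0.27, 0.31 and 0.37 in B+A10-FMT. B-sa held both its lowest value, shared with a B+A10-FMT mouse, and its 2 highest.

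The comparison of B-sa with Con-sa asked what busulfan alone left in the spleen. Upk1b rose (log2 difference 0.61, SE 0.15; limma, adjusted p = 0.0199), and it was the only call among the 9 tested genes, or 11.1% of them, while 14.5% of all 12671 genes tested were called. That call was lost without any 1 of 4 mice (Con-sa mouse 1 or 2, or B-sa mouse 2 or 3), with adjusted p of 0.0515 to 0.0857. The 3 genes whose groups did not overlap (Upk3b, Upk1b and Gpm6a) were all higher in B-sa, and 34% of all genes tested did not overlap. The estimate was above 0 for 8 of the 9 genes, with a median of 0.32, against a median of -0.04 over all genes. Without B-sa mouse 1, 5 genes were called (Msln, Upk3b, Upk1b, Lrrn4 and Gpm6a, with adjusted p of 0.0301 at most for those gained), and without B-sa mouse 2 or mouse 3 there were 0. The share of all genes called moved the same way: it was 16.6% without B-sa mouse 1, 4.06% without mouse 2 and 10.7% without mouse 3.

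The comparisons of the FMT groups with B-sa asked what transplantation changed after busulfan. In B+A10-FMT, 3 of the 9 genes (33.3%) were called lower, against 5.27% of all genes tested called in either direction. The estimate was below 0 for 8 of the 9, and 8 had an unadjusted limma p under 0.05. Upk1b fell by 0.74 on the log2 scale (SE 0.15; limma, adjusted p = 0.0179), Lrrn4 fell by 0.66 (SE 0.15; adjusted p = 0.0275) and Krt19 fell by 0.73 (SE 0.19; adjusted p = 0.049). The same 3 genes were the ones whose groups did not overlap, beside 27% of all genes, and the median estimate was -0.48 against 0.05 over all genes. The Krt19 call was lost in 9 of the 12 fits that left out 1 mouse (adjusted p of 0.0615 to 0.172), the Lrrn4 call in 4 (0.0653 to 0.113; B-sa mice 2 and 3 and B+A10-FMT mice 1 and 2) and the Upk1b call in 2 (0.083 and 0.0846; B-sa mouse 2 and B+A10-FMT mouse 2). With only the 2 groups fitted, Lrrn4 and Krt19 were lost (adjusted p = 0.0686 and 0.0825; 1.49% of all genes called), as they were with the principal transcript of each gene alone (0.0955 and 0.0573; 0.901%), and Krt19 was lost without the filter on low values (0.0745; 2.52%). The count was 6 without B-sa mouse 1, 0 without B-sa mouse 2 and 1 without B-sa mouse 3, beside 6.58%, 1.12% and 3.7% of all genes called in those fits.

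In B+Con-FMT against B-sa, 0 of the 9 genes were called by limma (5 had an unadjusted p under 0.05, and the lowest adjusted p was 0.0856, for Lrrn4), with 0.844% of all genes called. Upk3b, Upk1b, Lrrn4 and Krt19 were lower in all B+Con-FMT mice than in all B-sa mice, which was so in either direction for 19.4% of all genes. Their log2 differences were -0.67, -0.51, -0.58 and -0.65. Without B-sa mouse 1, 5 genes were called (these 4 and Gpm6a), and the share of all genes called rose to 3.68%. Both FMT groups were set against the same 3 B-sa mice, so the resemblance of the values in both comparisons is in part that of shared samples.

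**Figure D2:**
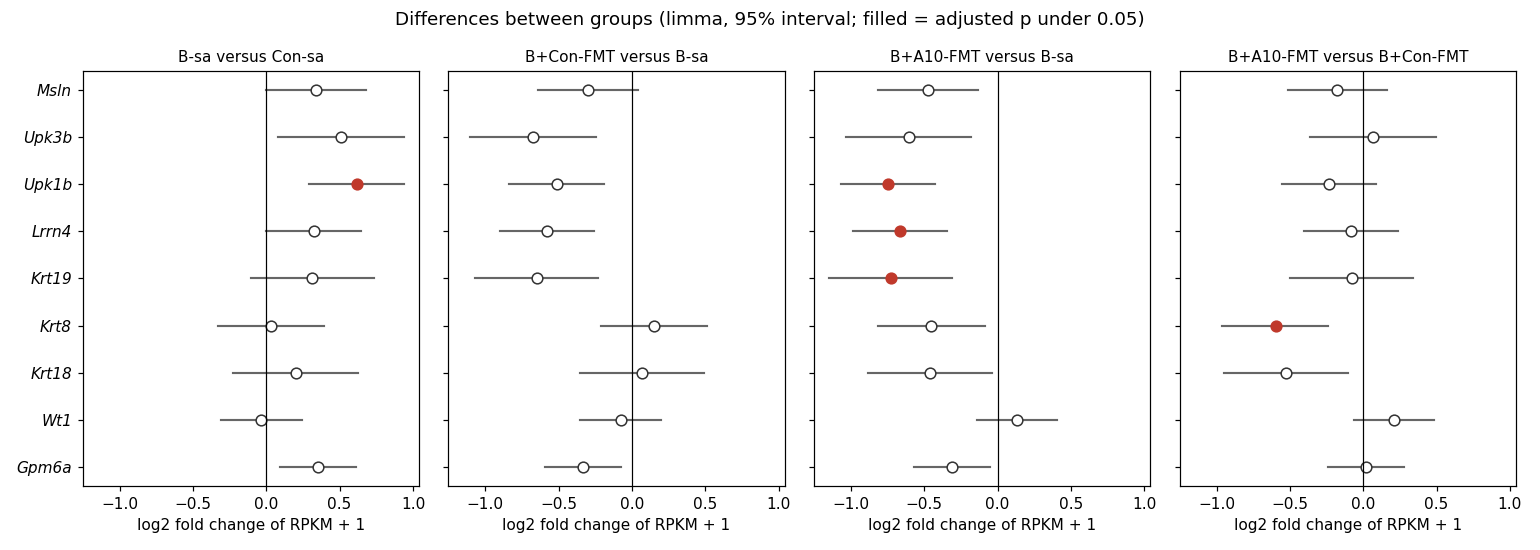
Log2 difference (horizontal axis, on the log2(RPKM + 1) scale) of the 9 tested mesothelial genes in 4 comparisons, first group minus second; lines are 95% intervals of the limma fit and filled points are adjusted p under 0.05. Upk1b is filled for B-sa against Con-sa, Upk1b, Lrrn4 and Krt19 for B+A10-FMT against B-sa, and Krt8 for the 2 FMT groups.

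The 2 FMT groups differed in whether the donors had received alginate oligosaccharide or were control donors. Krt8 had a log2 difference of B+A10-FMT minus B+Con-FMT of -0.60 (SE 0.17; limma, adjusted p = 0.0409) and was the only one of the 9 called (11.1%, against 10.4% of all genes tested) or not overlapping (35% of all genes). Its partner Krt18 had -0.53 (SE 0.20; adjusted p = 0.0995). The Krt8 call was lost in 6 of the 12 fits that left out 1 mouse (adjusted p of 0.0524 to 0.155; Con-sa mouse 2, each B+Con-FMT mouse and B+A10-FMT mice 1 and 2), and without B+A10-FMT mouse 3 both keratins were called, beside 6.17% of all genes. For the 5 genes highest in B-sa besides Msln and Bnc1, no difference between the FMT groups was called, and the log2 difference ran from -0.23 for Upk1b (95% interval -0.55 to 0.09) to 0.07 for Upk3b (-0.36 to 0.50).

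Set against Con-sa, neither FMT group had a called gene among the 9, and none separated without overlap. In B+Con-FMT no gene had an unadjusted limma p under 0.05, with 8.87% of all genes called and 34.1% not overlapping. In B+A10-FMT, Lrrn4 (log2 difference -0.34) and Krt8 (-0.42) had an unadjusted p under 0.05 and adjusted p of 0.343 and 0.309, with 0.41% of all genes called and 21.6% not overlapping. A single F test per gene over the 4 groups called Upk1b (adjusted p = 0.02) and Lrrn4 (adjusted p = 0.0279) and left Krt19 just outside (0.0522), where 17.1% of all genes were called. Without B-sa mouse 1 the F test called 7 of the 9, and without B-sa mouse 2 or 3 it called 0. It called 21.4% of all genes without mouse 1, 10% without mouse 2 and 15% without mouse 3.

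Over all 12 mice, where the r includes the group differences described above, the likeness of the genes followed the same division. Pearson's r of log2(RPKM + 1) over the 12 mice, given as a description because all values share the same libraries, was 0.95 for Lrrn4 with Krt19, 0.89 for Upk3b with Lrrn4 and 0.88 for Msln with Gpm6a and for Upk1b with Lrrn4. Krt8 and Krt18 were most like each other (0.69). Wt1 had r from -0.50 (Krt18) to 0.34 (Upk3b), and the median of all 36 pairs was 0.50. By the deviations from the group means, Krt18 stayed apart, with a median r of 0.14 with the other 8 genes and 0 with Upk1b, whereas Wt1 and Krt8 did not. Wt1 then had r of 0.75 with Lrrn4, 0.67 with Krt19, 0.64 with Upk3b and with Upk1b and 0.57 with Msln. Krt8 was most like Gpm6a (0.92) and Msln (0.77), with 0.42 for Krt18, and the median of the 36 pairs was 0.64.

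**Figure D3:**
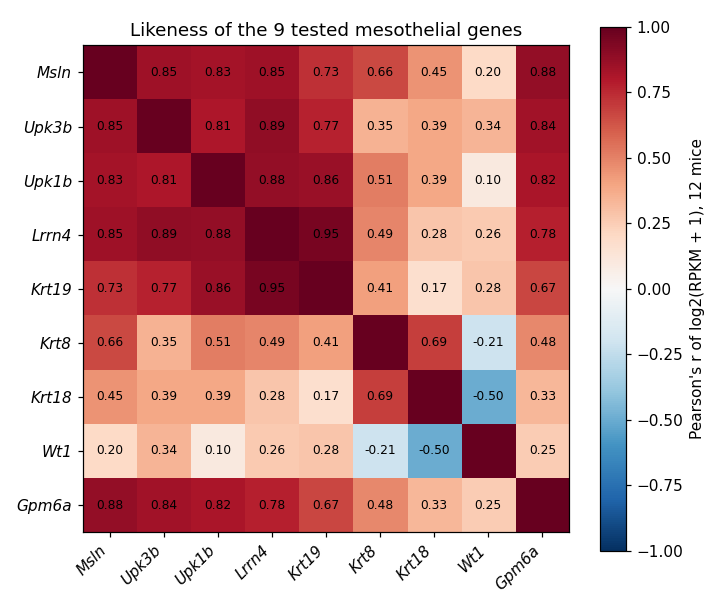
Pearson's r of log2(RPKM + 1) over the 12 mice for each pair of the 9 tested mesothelial genes, from blue (-1) to red (1). Msln, Upk3b, Upk1b, Lrrn4, Krt19 and Gpm6a form a red block, Krt8 and Krt18 share 0.69, and Wt1 runs from -0.50 (Krt18) to 0.34 (Upk3b).

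The genes outside the 10 most like the mean of the 9 were found by the r of deviations from the group means over the 12 mice. Among them were Ogn (0.98), Prg4 (0.97), Sertad3 (0.96), Dab2 (0.96), Igfbp6 (0.95), Cir1 (0.95), Terf1 (0.94), Dcn (0.94) and Fndc1 (0.93). Ogn and Dcn encode small proteoglycans of the collagen matrix, and Prg4 encodes lubricin. Ogn had RPKM of 4.87, 8.37 and 7.91 in B-sa mice 1, 2 and 3, and Dcn had 55.7, 80.1 and 69.5. Sertad3 had 17.4, 19.6 and 19.4, Cir1 had 36.4, 41.9 and 40.8 and Terf1 had 14.7, 16.5 and 16.2. Prg4, Igfbp6 and Dcn are on the gene lists described below, whereas Ogn, Sertad3, Dab2, Cir1, Terf1 and Fndc1 are on none of them. The deviations that chose these genes include the step from B-sa mouse 1 to its group mates, so the step in them restates the choice.

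Of 12 other genes known from mesothelium, Calb2 was not analysed here, and 10 of the other 11 had their highest mean in B-sa (the exception was Pkhd1l1). B-sa mice 2 and 3 were both above B-sa mouse 1 in 9 of the 11. Of these, 7 were tested, and 1 was called in B-sa against Con-sa, a share near the 14.5% of all genes called. This was Cldn15, a claudin of tight junctions, which rose: its RPKM was 2.35, 1.94 and 2.89 in Con-sa and 3.28, 4.71 and 3.48 in B-sa (log2 difference 0.51, SE 0.14; limma, adjusted p = 0.0342). Rspo1, a secreted enhancer of Wnt signaling, was at 2.81, 2.97 and 2.92 in Con-sa and 3.23, 5.87 and 4.40 in B-sa (adjusted p = 0.0556). The groups of these 2 genes did not overlap (34% of all genes), and all 7 estimates were above 0, with a median of 0.43 against -0.04 over all genes. In B+A10-FMT against B-sa, 6 of the 7 estimates were below 0 and 0 were called by limma (4 had an unadjusted p under 0.05), with 5.27% of all genes called. Krt7, a keratin of simple epithelia, came nearest (log2 difference -0.58; adjusted p = 0.0519), and Nkain4 had -0.73 (adjusted p = 0.0607). The F test called 0 of the 7 (4 with an unadjusted p under 0.05), with 17.1% of all genes called.

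**Figure D4:**
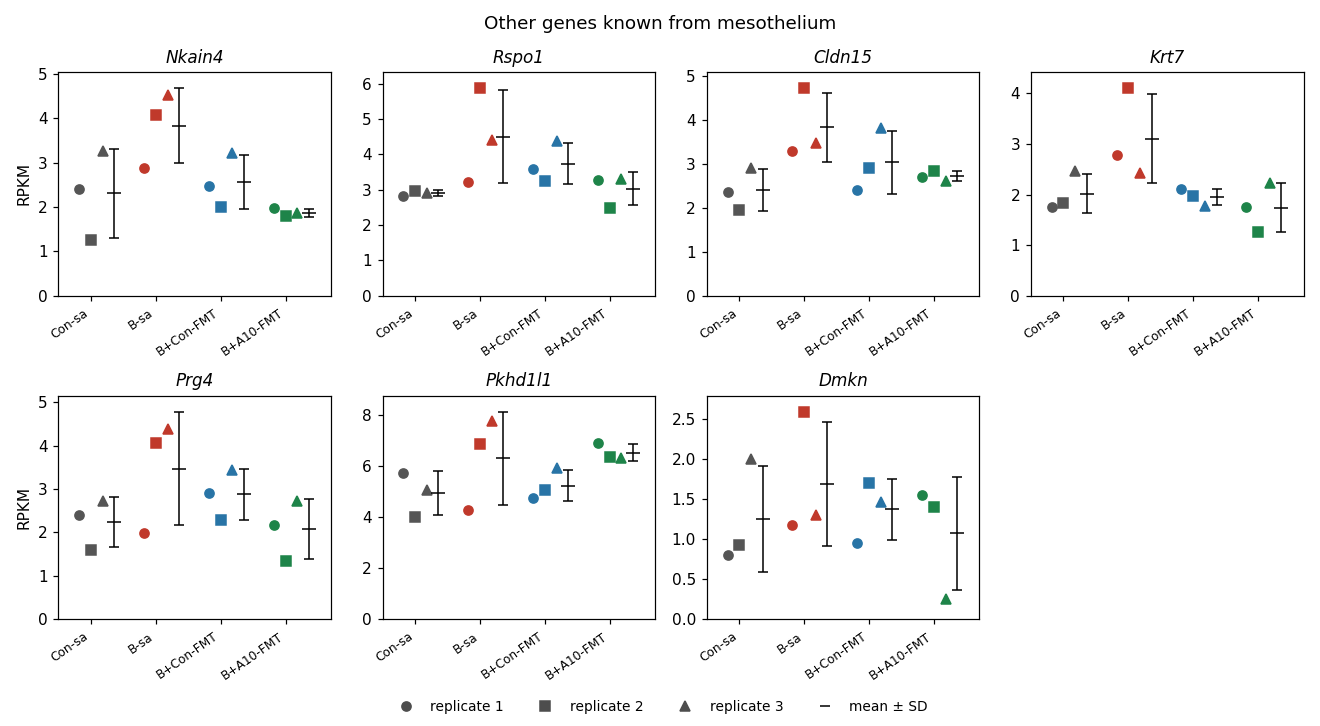
RPKM of the 7 tested other mesothelial genes (1 panel each, vertical axes from 0) in the 12 spleens; symbols are mice, and bars are the mean ± SD of 3. Cldn15 and Rspo1 are higher in all B-sa mice than in all Con-sa mice, and Pkhd1l1 has its highest mean in B+A10-FMT.

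Of 7 genes that mesothelium shares with fibroblasts (Igfbp6, Efemp1 and Sulf1 the highest), all 7 had their highest mean in B-sa, 6 were tested, and 0 were called by limma in any of the 6 comparisons (3 had an unadjusted p under 0.05 in B+A10-FMT against B-sa, the most in any), in which 0.41% to 14.5% of all genes were called. B-sa mice 2 and 3 were both above B-sa mouse 1 in 4 of the 7 (Aldh1a2, Efemp1, Igfbp6 and Ptgis) and not in Pdpn, Bnc2 and Sulf1. Igfbp6 was at 7.36, 15.41 and 17.04 in B-sa mice 1, 2 and 3 and at 6.24, 5.40 and 7.64 in B+A10-FMT. The summed RPKM of 15 fibroblast and smooth muscle genes of the capsule (Dcn, Tagln and Col1a2 the highest) was 280, 364 and 309 in B-sa mice 1, 2 and 3, so mouse 1 was again the lowest of its group, and B-sa mice 2 and 3 were both above mouse 1 in 11 of the 15 genes. The sum was not highest in B-sa: it ran from 292 to 404 for Con-sa, 287 to 351 for B+Con-FMT and 245 to 277 for B+A10-FMT. Dcn was the 1 gene of the 15 called lower in B+A10-FMT against B-sa, where 5.27% of all genes were called in either direction. Pdgfra, a growth factor receptor of fibroblasts, had another order, with RPKM of 5.40 to 5.91 for Con-sa, 4.32 to 4.51 for B-sa, 3.75 to 4.83 for B+Con-FMT and 4.84 to 5.44 for B+A10-FMT. It was the 1 gene of the 15 called in B-sa against Con-sa (log2 difference -0.28, SE 0.08; limma, adjusted p = 0.0364) and the 1 called in B+Con-FMT against Con-sa (-0.33; adjusted p = 0.0272), and the F test called Pdgfra and Dcn (adjusted p = 0.0328 and 0.0283), beside 14.5%, 8.87% and 17.1% of all genes.

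The sum of 10 fat cell genes also had B-sa mouse 1 below its group mates, and B-sa mice 2 and 3 were both above mouse 1 in 8 of the 10. The exceptions were Lep (0.71, 0.64 and 0.51 in B-sa mice 1, 2 and 3) and Cidea (0.07, 0.26 and 0.06). The summed RPKM of the 10 (Fabp4, Cfd and Adipoq the highest) was 125, 308 and 216 in B-sa mice 1, 2 and 3, 182, 119 and 230 in Con-sa, 122, 40.2 and 89.4 in B+Con-FMT and 69.8, 74.0 and 81.3 in B+A10-FMT. Within each of the groups except B+A10-FMT, the mouse lowest in fat cell genes was also the lowest in the mesothelial sum. The match was not complete: B+Con-FMT mouse 1 was the highest of its group in fat cell genes and not in the mesothelial sum, and Con-sa mouse 3 had more fat cell RNA than B-sa mouse 3 with a mesothelial sum of 31.4 against 41.9. Adipoq, which defines fat cells, was above 3 in every mouse. Fat at the hilum of the spleen has a mesothelial cover of its own, and the part of attached fat in the mesothelial values was not tested.

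The pancreatic duct list had the order of group means of Msln and Upk1b. The summed RPKM of its 8 genes was 38.3, 44.8 and 42.3 in B-sa, 37.8 to 39.7 for B+Con-FMT, 33.0 to 42.3 for Con-sa and 34.7 to 34.9 for B+A10-FMT. Most of it was Tspan8, a tetraspanin of several epithelia, ahead of Bicc1 and Ambp. Of the 3 tested, Tspan8 alone was called. It rose in B-sa against Con-sa (log2 difference 0.34, SE 0.06; limma, adjusted p = 0.00582) and in B+Con-FMT against Con-sa (0.22; adjusted p = 0.0382) and fell by 0.28 in B+A10-FMT against B-sa (adjusted p = 0.0216), and the F test called it (adjusted p = 0.00939). The shares of all genes called were 14.5%, 8.87%, 5.27% and 17.1% in that order. The part of RNA of duct or other epithelial cells in the mesothelial values was not tested. Kidney genes had another order of the groups: the summed RPKM of 11 (Kap, Slc34a1 and Miox the highest) ran from 78.1 to 120 for Con-sa, 19.1 to 64.3 for B+Con-FMT, 8.6 to 16.2 for B-sa and 1.2 to 4.1 for B+A10-FMT. Within B-sa the kidney sum was 8.6, 12.8 and 16.2 in mice 1, 2 and 3, so mouse 1 was the lowest here too. Of 6 transcription factors of the spleen stroma (Tcf21, Tlx1 and Nr2f2 the highest), 3 rose in B+A10-FMT against B-sa, where 5.27% of all genes were called. Tlx1 was at 12.61 to 13.55 in B-sa and 19.27 to 21.64 in B+A10-FMT.

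**Figure D5:**
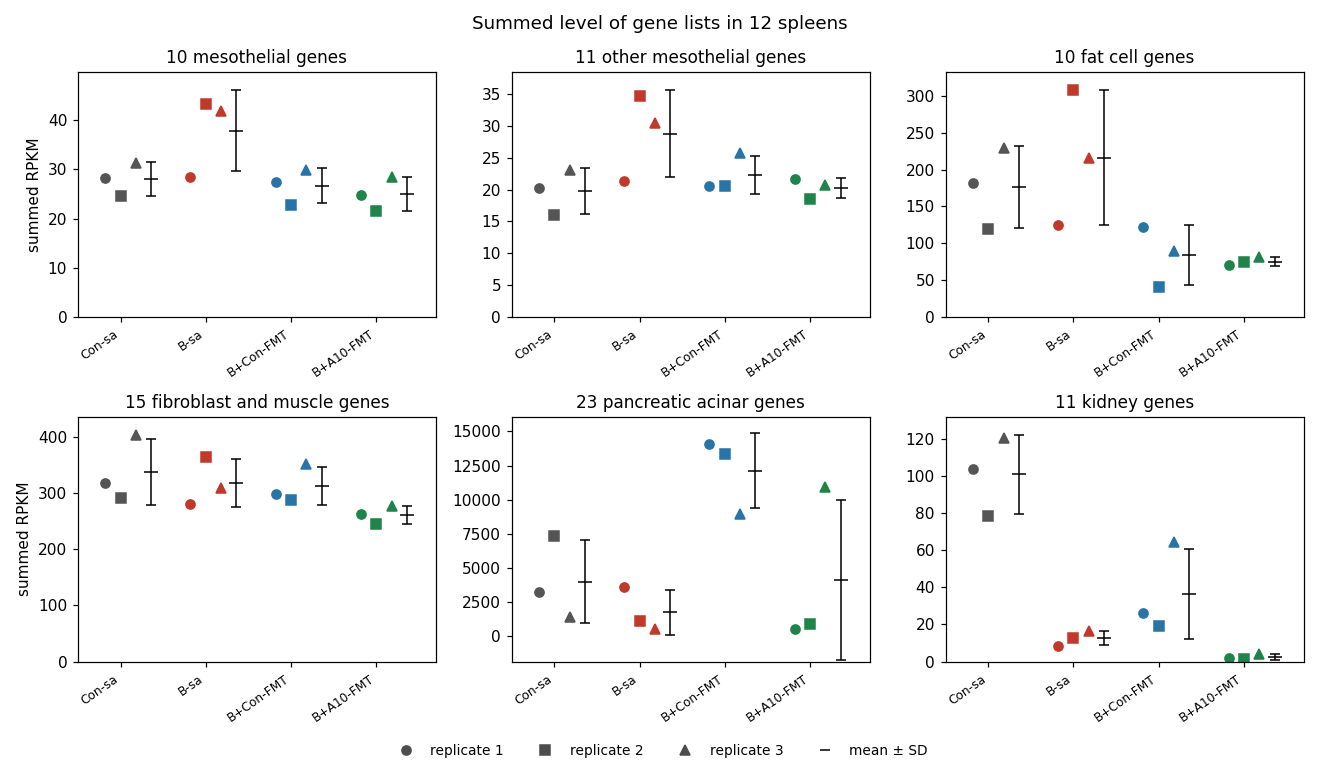
Summed RPKM of 6 gene lists in the 12 spleens (vertical axes differ); symbols are mice, and bars are the mean ± SD of 3. The mesothelial, other mesothelial, fat cell, fibroblast and muscle, and kidney sums each have B-sa mouse 1 below B-sa mice 2 and 3. The acinar sum has B-sa mouse 1 above them and is highest in B+Con-FMT and B+A10-FMT mouse 3.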

How the data were processed

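Spleen RNA of 12 mice was measured, 3 in each group, and groups were taken from the sample labels. Per the study's methods, the authors extracted RNA with TRIzol, enriched it with oligo(dT), fragmented and sequenced it, mapped the reads with SOAPaligner and transformed them into RPKM, which are the deposited values, listed for 60654 RefSeq transcripts. The submitters' processing notes also name HISAT, Bowtie2 and mm10, and it is not given in the sources used here which mapper made the files. The study's own test was DEGseq. Read counts were not used here, so precision rests on the spread between mice. The labels do not state that the samples of a group are separate mice (the study's methods give samples per group), and p-values measure only the spread between them.

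RPKM were summed over the transcripts of each Entrez gene, and symbols were matched for 18101 of 18221 genes in the RefSeq table (GRCm38.p6). A gene entered the fit when 3 or more mice reached RPKM 1. The fit of log2(RPKM + 1) was made by limma 3.58.1 under R 4.3.3 (trend and robust settings, all 12 mice in 1 fit, group as the only factor), and fold changes on that scale understate those of low genes. All 6 pairings of the groups and 1 F test were computed. P-values were two-sided, adjusted by the Benjamini-Hochberg method over all genes tested, and called under 0.05. The members and lists were chosen with earlier results of these data known. Genes named were the 10 members, the 3 highest of each list, any other mesothelial or shared gene the F test called, and the 10 most like genes (1 is not reported here); others named, and the motifs, were picked with their values in view. The code of the fit was also run on simulated data, and the outcome is not reported here. The settings varied were the pseudocount (0.1), the filter (none, or every mouse at RPKM 1), a replicate block, 2 groups at a time, each mouse left out, 2 other scalings and the principal transcript alone. Python 3.11.15 with pandas 2.3.3, NumPy 2.4.6 and matplotlib 3.10.9 made the sums and figures.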

Additional observations from a re-analysis of the deposited data

How the results depend on the processing

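Counts of called genes among the 9 tested moved as follows. In B-sa versus Con-sa the 1 call became 0 when every mouse had to reach RPKM 1 (5 of the 10 genes pass it, and Upk1b is not among them), 2 with median-of-ratios scaling and 2 with the transcript of highest mean RPKM, and ranged from 0 to 5 with each mouse left out. For B+Con-FMT set against B-sa the 0 ranged from 0 to 5 with each mouse left out. In B+A10-FMT versus B-sa the 3 became 1 under the filter on every mouse, 1 with the transcript of highest mean RPKM, 1 with only the 2 groups compared and 2 without a filter, and ranged from 0 to 6. Between both FMT groups the 1 became 0 without a filter, under the filter on every mouse, with the transcript of highest mean RPKM and with only the 2 groups compared, and ranged from 0 to 2. Krt8 was not tested under the filter on every mouse. With only the 2 groups compared it was not tested either, because too few of those mice reached RPKM 1. The F test's 2 became 1 under the filter on every mouse, 1 with the transcript of highest mean RPKM, and 3 with a pseudocount of 0.1 or equal totals outside the globin genes, and ranged from 0 to 7; among other mesothelial genes its 0 became 1 with equal totals outside the globin genes and ranged from 0 to 2. The share of all genes called moved too: in B-sa versus Con-sa from 14.5% to 4.44% with the transcript of highest mean RPKM, to 15.7% under the filter on every mouse and to 13.5% with median-of-ratios scaling. In B+A10-FMT versus B-sa it went from 5.27% to 0.901% with that transcript, 5.74% under that filter, 1.49% with only the 2 groups compared and 2.52% without a filter. Between both FMT groups it went from 10.4% to 2.56%, 11.6%, 8.42% and 4.95% in those fits, and for the F test from 17.1% to 4.12% with that transcript, 18.6% under that filter, 17.1% with a pseudocount of 0.1 and 22.9% with equal totals outside the globin genes. Other than the filters, which change the genes tested, and the fits with fewer mice, the cause was not tested. Of 1053 single-gene estimates under the alternatives, 1005 kept their side of the threshold and their direction if called, 15 gained a call, 33 lost one, and 28 changed sign where neither fit called them.

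The replicate numbers do not pair the mice: deviations of same-numbered mice correlated at -0.373 to 0.303. With the replicate block the F test called 2 genes and B+A10-FMT versus B-sa had 2 calls, Krt19 being the one lost (adjusted p = 0.0815), beside 11.8% and 3.29% of all genes, and no other call changed. How far depth limits the comparisons of genes near RPKM 1 was not tested.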
